A study of Arabidopsis thaliana with 12 samples.

Results

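The PIF4 pathway of warmth-driven growth was followed through 10 genes, taken by locus from a count table of 33330 features. They are PIF4 (AT2G43010), PIF5 (AT3G59060), PIF7 (AT5G61270), PHYB (AT2G18790), COP1 (AT2G32950), HFR1 (AT1G02340), YUC8 (AT4G28720), IAA19 (AT3G15540), IAA29 (AT4G32280) and ATHB2 (AT4G16780). All 10 had counts in every library and passed the filter on low counts. RNA was sequenced from whole 6-day Arabidopsis thaliana seedlings in 4 groups of 3 libraries. The groups were plants labelled hd2b hd2c knockout held at 44 °C for 3 h (heat), plants labelled hd2b hd2c kept at 22 °C (normal), wild type (WT) held at 44 °C for 3 h, and WT kept at 22 °C. All were grown on the same sucrose medium under long days. HD2B and HD2C encode plant-specific histone deacetylases, and the labels do not name the alleles. The labels give the normal seedlings a time of 0 hours, so heat and the 3 h that passed cannot be told apart.

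Phytochrome-interacting factors (PIFs) are basic helix-loop-helix transcription factors that promote elongation growth. The photoreceptor phytochrome B, encoded by PHYB, binds PIFs and drives their degradation in light, and it reverts to its inactive form faster in the warm. PIF4 then activates the auxin synthesis gene YUC8, and auxin induces IAA19 and IAA29 and with them cell elongation. The ubiquitin ligase COP1 removes HFR1, a helix-loop-helix protein that pairs with PIFs and keeps them off DNA. The pathway is known from mildly warm temperatures, and the labels call the treatment used here a heat shock.

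PIFs bind the G-box (CACGTG) and a related E-box (CACATG, which reads CATGTG on the other strand), so the bases before the members' start sites were searched for both. The window was the 250 bases before the annotated start of each gene in RefSeq's TAIR10.1, whose nuclear chromosomes are those of TAIR10, the build the reads were aligned to. The 4 promoters shown are those with a G-box or E-box, which include that of the gene with the largest rise after heat (IAA19) and that of the only one that fell (YUC8). Capitals mark every match to a searched motif, and each sequence runs 5′ to 3′ toward the gene's start.
IAA19 promoter, chr3:5263751-5264000, plus strand: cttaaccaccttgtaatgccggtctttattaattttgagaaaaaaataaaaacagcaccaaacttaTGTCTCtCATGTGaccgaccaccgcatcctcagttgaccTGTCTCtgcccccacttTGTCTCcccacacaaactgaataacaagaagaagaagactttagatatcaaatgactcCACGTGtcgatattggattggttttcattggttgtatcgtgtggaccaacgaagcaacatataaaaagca
YUC8 promoter, chr4:14192319-14192568, plus strand: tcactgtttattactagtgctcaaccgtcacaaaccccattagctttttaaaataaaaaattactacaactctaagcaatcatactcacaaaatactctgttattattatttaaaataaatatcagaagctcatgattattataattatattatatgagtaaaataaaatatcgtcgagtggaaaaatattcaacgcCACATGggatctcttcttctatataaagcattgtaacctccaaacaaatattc
PIF5 promoter, chr3:21830838-21831087, minus strand: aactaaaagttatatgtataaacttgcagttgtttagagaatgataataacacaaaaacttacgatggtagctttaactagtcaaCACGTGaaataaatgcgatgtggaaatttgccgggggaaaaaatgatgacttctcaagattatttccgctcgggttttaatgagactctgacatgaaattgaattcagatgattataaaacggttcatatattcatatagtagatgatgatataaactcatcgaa
PHYB promoter, chr2:8139506-8139755, plus strand: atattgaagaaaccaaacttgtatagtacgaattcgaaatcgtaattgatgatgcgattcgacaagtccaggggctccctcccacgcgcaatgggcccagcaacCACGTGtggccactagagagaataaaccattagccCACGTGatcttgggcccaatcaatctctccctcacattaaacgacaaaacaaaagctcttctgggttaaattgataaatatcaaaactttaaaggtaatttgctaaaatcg

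IAA19 held a G-box 70 bases before its start, an E-box (CATGTG) at 177, and 3 copies of the auxin response element TGTCTC at 184, 145 and 128. YUC8 held 1 E-box (CACATG) at 53, PIF5 a G-box at 165, and PHYB a G-box at 146 and another at 111. Of the 10 members 3 held a G-box, against 6.49% of 27437 protein-coding promoters of the same length. Of the 10, 2 held the E-box (11.1% of all promoters), and 2 an auxin response element, written TGTCTC or TGTCGG and read on both strands (14.7%). A heat shock element, written GAANNTTC or TTCNNGAA, was found in 1, COP1 (16.2% of all promoters). The windows of PIF4, PIF7, IAA29 and ATHB2 held none of these letters, and bases farther upstream were not searched. A match is a description of the sequence and not evidence of binding, and HFR1 held 1 auxin response element only.

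Levels are given in CPM, counts scaled to the library total times a factor from the trimmed mean of M values (TMM). These factors were 0.424 to 0.7439 in the heat libraries and 1.619 to 1.856 in the normal libraries. Levels at the 2 temperatures thus depend on this scaling. HD2B averaged 18.6 ± 4.75 CPM in the libraries labelled hd2b hd2c after heat and 85.8 ± 4.97 in WT after heat. At normal temperature it averaged 23.8 ± 2.76 against 40 ± 3 CPM (mean ± SD, n = 3 each). HD2C was higher in the libraries labelled hd2b hd2c, with 324 ± 30.2 against 149 ± 4.69 CPM in WT after heat and 98.1 ± 6.97 against 37.3 ± 2.4 at normal temperature. The level of HD2C thus does not show its loss, and the groups are called by their label. Libraries held 7737285 to 24030931 counts. Replicate 2 of hd2b hd2c heat was the smallest and differed most from the rest. Ribosomal RNA took 11.2% of its counts, against 0.734% to 5.02% in the other 11. Whether replicates were grown as separate cultures is not stated, and the p-values then cover only the spread among these libraries, which may be technical. A summed list of 10 photosynthesis genes of green tissue had 102000 to 226000 CPM in hd2b hd2c heat and 17100 to 22000 in hd2b hd2c normal, 146000 to 186000 in WT heat and 19600 to 21500 in WT normal. A list of 13 root genes had 51.2 to 115 CPM in hd2b hd2c heat and 51.9 to 63 in hd2b hd2c normal, 66.8 to 80.1 in WT heat and 72 to 77.7 in WT normal. The highest values in hd2b hd2c heat, 226000 and 115, were both from replicate 2. All 10 photosynthesis genes rose with heat in both genotypes, while 3 root genes rose and 7 fell in hd2b hd2c and 2 rose and 8 fell in WT. The largest part of the root sum was PHT1.1, which rose in both genotypes. It averaged 43.8 CPM in hd2b hd2c heat, 21.9 in hd2b hd2c normal, 46.4 in WT heat and 31.7 in WT normal. The root sum thus does not follow most of its genes, whose median log2 fold change was −0.90 in hd2b hd2c and −1.35 in WT. On library totals 1 of the photosynthesis genes and all 3 root genes that rose turned negative in hd2b hd2c. In WT 1 of the 2 root genes that rose did so, and none of the photosynthesis genes. No marker of either list was at 0 in a whole group, but some root genes were close to it after heat. COBL9 had 1 count over the hd2b hd2c heat libraries and LRX1 had 2 over those of WT heat. The lowest root gene had 54 counts in hd2b hd2c normal (LRX1) and 61 in WT normal (NRT2.1). The part of these shifts in the results was not tested, and in whole seedlings fewer cells of a type and less RNA per cell cannot be told apart.

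Heat shifted how counts were shared among genes, so every heat effect depends on the scaling. Levels and fold changes are given with TMM scaling. Under it the median log2 fold change of all 20232 genes tested was −0.12 in hd2b hd2c and −0.14 in WT. With library totals alone that median was −1.56 in hd2b hd2c and −1.67 in WT. A scaling factor shifts all genes of a library alike, so a gene's distance from that median is nearly fixed by construction and is no check of a result. With TMM, PIF4 lay 0.91 above the median in hd2b hd2c and 1.01 above it in WT, and IAA19 lay 2.01 and 2.71 above it. "Rose" and "fell" below mean changes under TMM scaling, called at an adjusted p under 0.05 (edgeR, quasi-likelihood; Benjamini-Hochberg over all genes).

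**Figure D1:**
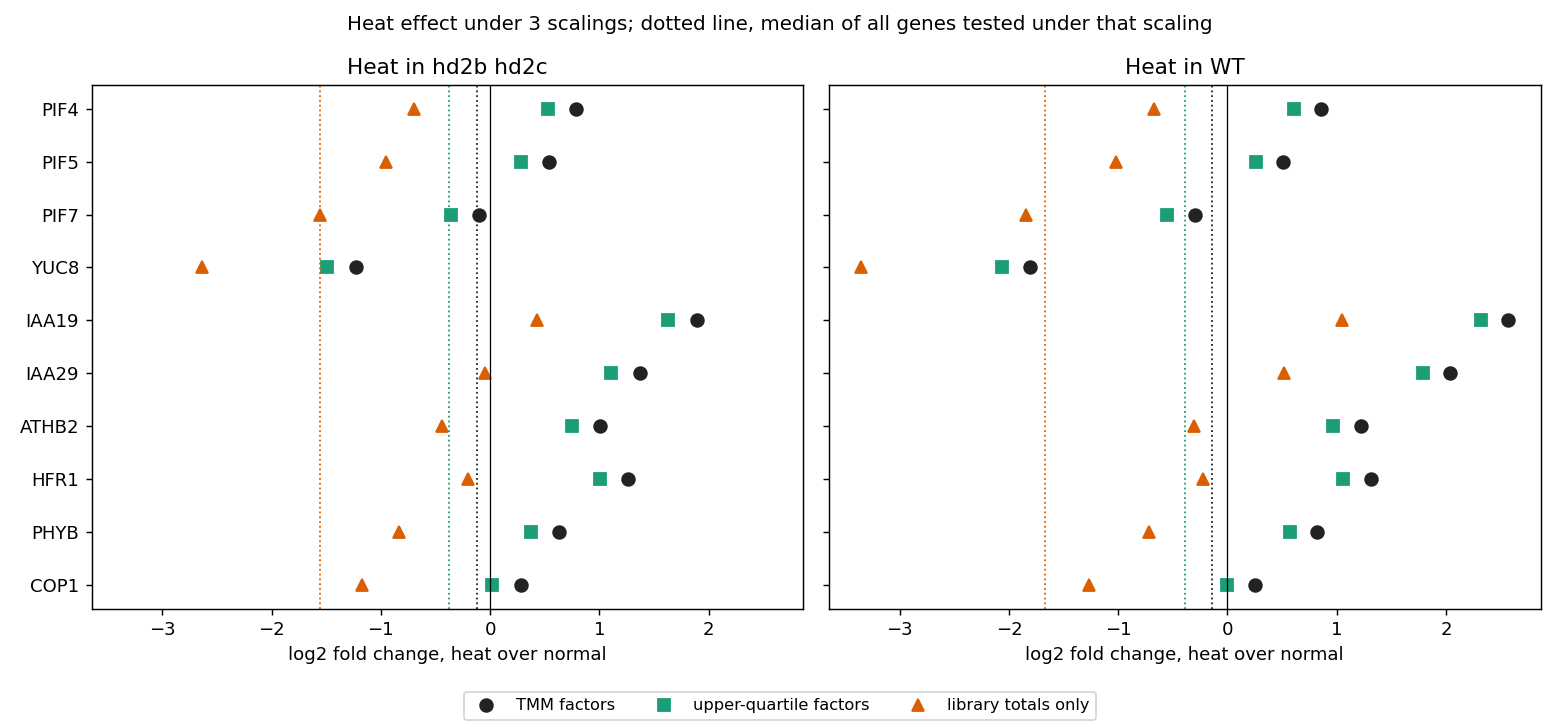
Log2 fold change of each of the 10 genes with heat (x axis; heat over normal) in the libraries labelled hd2b hd2c (left) and in WT (right) under 3 scalings, with the median of all genes tested as a dotted line in the same colour. With library totals PIF4, PIF5, ATHB2, HFR1 and PHYB turned negative in both genotypes and IAA29 did so in hd2b hd2c (−0.05). The scalings move the genes and their dotted line together by construction.

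Of the 10 members, 7 rose and 1 fell with heat in the libraries labelled hd2b hd2c, and the same counts were found in WT. In both genotypes PIF4, PIF5, IAA19, IAA29, ATHB2, HFR1 and PHYB rose, YUC8 fell, and PIF7 and COP1 did not pass. With library totals none rose in hd2b hd2c and IAA19 alone rose in WT, and 6 members fell in each. Of all genes tested 61.5% were called in hd2b hd2c (29.9% higher, 31.5% lower) and 65.8% in WT (31% higher, 34.8% lower), so a call in itself was common. The members' median log2 fold change was 0.71 in hd2b hd2c, where that of all genes was −0.12, and 0.84 in WT, where that of all genes was −0.14. The heat and normal groups did not overlap in CPM for 8 members in hd2b hd2c (66.3% of all genes) and for 9 in WT (70.8%). Without hd2b hd2c heat replicate 2, COP1 was called too in hd2b hd2c, which made 9 members.

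**Figure D2:**
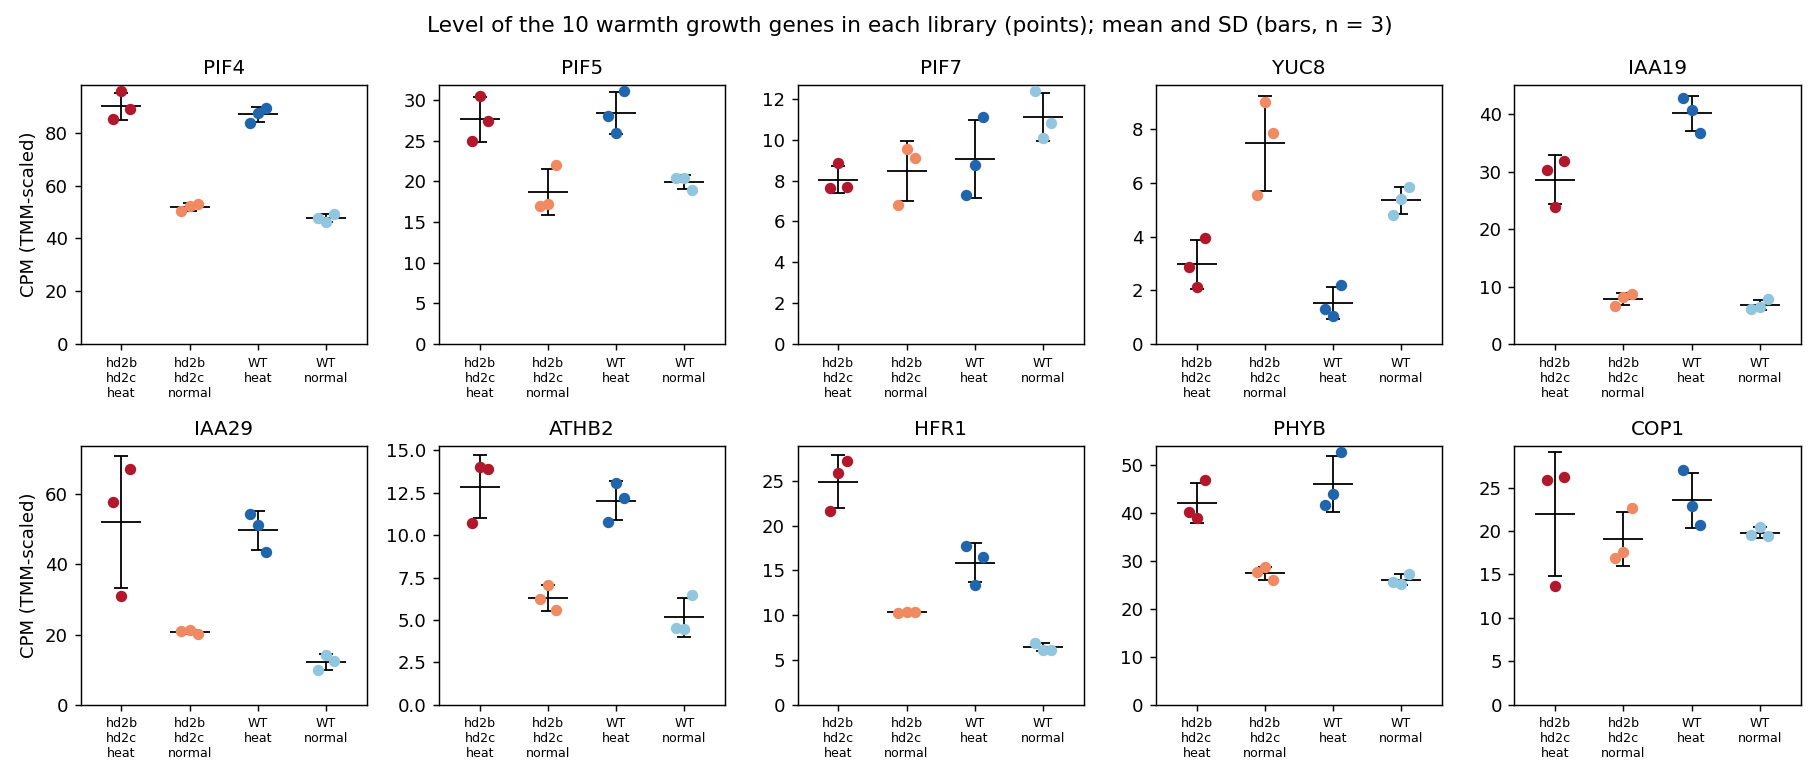
CPM with TMM scaling (y axis) of each gene in every library (points) of the 4 groups, with the mean and SD (bars, n = 3). Heat libraries lie above normal libraries of the same genotype for PIF4, PIF5, IAA19, IAA29, ATHB2, HFR1 and PHYB and below them for YUC8 under this scaling, and with library totals only IAA19 of those 7 kept a positive fold change in hd2b hd2c.

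Among the PIF genes, PIF4 and PIF5 rose with heat in both genotypes and PIF7 did not pass. PIF4, the factor on which warmth-driven growth chiefly depends, had 85.4, 95.7 and 89 CPM in hd2b hd2c heat and 50.3, 52.1 and 53.1 in hd2b hd2c normal. It had 83.8, 87.7 and 89.4 CPM in WT heat and 47.7, 46.4 and 49.3 in WT normal. Every heat library thus lay well above every normal library, in a nearly equal step in both genotypes. The log2 fold change was 0.79 in hd2b hd2c (SE 0.102, adjusted p 5.4e-07) and 0.86 in WT (SE 0.102, adjusted p 1.18e-07), and with library totals it turned to −0.70 and −0.67.

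PIF5, a close relative that acts with PIF4 in shade and warmth, had 25, 30.5 and 27.4 CPM in hd2b hd2c heat and 17, 17.2 and 22 in hd2b hd2c normal. It had 28.1, 26 and 31.1 CPM in WT heat and 20.4, 20.4 and 18.9 in WT normal. The groups did not overlap in either genotype, but the step was smaller than that of PIF4. It rose by 0.54 in hd2b hd2c (SE 0.139, adjusted p 0.00195) and by 0.51 in WT (SE 0.136, adjusted p 0.0022), turned to −0.95 and −1.02 with library totals, and did not pass with upper-quartile factors (0.28, adjusted p 0.0816, and 0.26, adjusted p 0.094).

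PIF7, a factor of the shade response that also acts in daytime warmth, had 7.65, 8.84 and 7.66 CPM in hd2b hd2c heat and 6.81, 9.52 and 9.09 in hd2b hd2c normal. It had 7.3, 8.74 and 11.1 CPM in WT heat and 12.4, 10.1 and 10.8 in WT normal. Heat and normal libraries overlapped in both genotypes. The log2 fold change was −0.10 in hd2b hd2c (95% interval −0.52 to 0.31) and −0.30 in WT (−0.70 to 0.10), and PIF7 was called lower on library totals in both (−1.56 and −1.84) and with upper-quartile factors in WT (−0.55). PIF7 is the only member that overlaps another annotated gene, sharing 318 bases with AT5G61260, which had 143 counts over the 12 libraries against 2350 for PIF7.

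Of the genes that act on PIFs, PHYB and HFR1 rose and COP1 did not pass. PHYB had 40.2, 39 and 46.9 CPM in hd2b hd2c heat and 27.6, 28.6 and 26 in hd2b hd2c normal. It had 41.6, 43.9 and 52.6 CPM in WT heat and 25.6, 25.2 and 27.3 in WT normal. All heat libraries lay above all normal libraries. PHYB rose by 0.63 in hd2b hd2c (SE 0.12, adjusted p 9.92e-05) and by 0.82 in WT (SE 0.119, adjusted p 2.52e-06), and turned to −0.83 and −0.72 with library totals.

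HFR1 had 21.6, 25.9 and 27.2 CPM in hd2b hd2c heat and 10.2, 10.4 and 10.3 in hd2b hd2c normal. It had 17.7, 13.4 and 16.5 CPM in WT heat and 6.91, 6.13 and 6.16 in WT normal. The 4 groups did not overlap, and ran from WT normal at the low end through hd2b hd2c normal and WT heat to hd2b hd2c heat. HFR1 rose by 1.26 in hd2b hd2c (SE 0.156, adjusted p 2.66e-07) and by 1.31 in WT (SE 0.161, adjusted p 2.16e-07), and turned to −0.20 and −0.22 with library totals.

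COP1 had 25.9, 13.7 and 26.2 CPM in hd2b hd2c heat and 16.9, 17.6 and 22.6 in hd2b hd2c normal. It had 27, 22.9 and 20.7 CPM in WT heat and 19.6, 20.5 and 19.4 in WT normal. The low value of 13.7 is from replicate 2, the library that stood apart. The log2 fold change was 0.28 in hd2b hd2c (95% interval −0.09 to 0.64, adjusted p 0.175), and 0.44 (adjusted p 0.0105) without that library. In WT, where the lowest heat library lay just above the highest normal one, it was 0.25 (−0.11 to 0.61, adjusted p 0.218), and with library totals COP1 was called lower in both, by −1.17 and −1.27.

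The auxin genes moved apart, with YUC8 falling and IAA19 and IAA29 rising. YUC8 encodes a flavin monooxygenase for the last step of auxin synthesis from tryptophan, and had few reads, 47, 7 and 69 counts in hd2b hd2c heat and 155, 283 and 254 in hd2b hd2c normal. It had 17, 12 and 26 counts in WT heat and 183, 94 and 165 in WT normal. Scaled, these were 2.85, 2.13 and 3.94 CPM in hd2b hd2c heat, 5.55, 9.01 and 7.86 in hd2b hd2c normal, 1.31, 1.06 and 2.18 in WT heat and 4.82, 5.39 and 5.84 in WT normal. All heat libraries lay below the normal libraries of their genotype. YUC8 fell by 1.23 on the log2 scale in hd2b hd2c (SE 0.28, adjusted p 0.00061) and by 1.81 in WT (SE 0.306, adjusted p 1.85e-05), and stayed negative under the other scalings.

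IAA19, an Aux/IAA repressor gene that auxin induces quickly, had 30.3, 23.8 and 31.8 CPM in hd2b hd2c heat and 6.7, 8.24 and 8.69 in hd2b hd2c normal. It had 42.9, 40.8 and 36.8 CPM in WT heat and 6.12, 6.36 and 7.82 in WT normal. It had the largest rise of the 10 in both genotypes, 3.7-fold in hd2b hd2c (1.89 on the log2 scale, SE 0.155, adjusted p 3.7e-10) and 5.93-fold in WT (2.57, SE 0.157, adjusted p 1.95e-12). With library totals it stayed positive in hd2b hd2c (0.43, adjusted p 0.139) and in WT (1.05). This is the gene whose promoter, printed above, holds 3 auxin response elements, and whether they have a part in its rise was not tested.

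IAA29, another Aux/IAA gene and a known target of PIF4 and PIF5, had 57.8, 31.1 and 67.3 CPM in hd2b hd2c heat and 20.9, 21.4 and 20.2 in hd2b hd2c normal. It had 54.4, 51.3 and 43.6 CPM in WT heat and 9.91, 14.2 and 12.4 in WT normal. The value of 31.1 is from hd2b hd2c heat replicate 2, and even it lay above every normal library. IAA29 rose 2.59-fold in hd2b hd2c (1.37, SE 0.183, adjusted p 1.19e-06, and 1.58 without that library) and 4.12-fold in WT (2.04, SE 0.189, adjusted p 4.19e-09). With library totals it turned to −0.05 in hd2b hd2c and was 0.52 in WT (adjusted p 0.128).

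ATHB2, a homeodomain-leucine zipper (HD-ZIP) class II gene of shade growth and a PIF target, had 10.7, 14 and 13.9 CPM in hd2b hd2c heat and 6.23, 7.07 and 5.57 in hd2b hd2c normal. It had 10.8, 13.1 and 12.2 CPM in WT heat and 4.53, 4.47 and 6.47 in WT normal. Heat and normal libraries were well apart, while the genotypes overlapped at each temperature. ATHB2 rose by 1.01 in hd2b hd2c (SE 0.199, adjusted p 0.000129) and by 1.22 in WT (SE 0.199, adjusted p 1.23e-05), and turned to −0.44 and −0.31 with library totals.

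**Figure D3:**
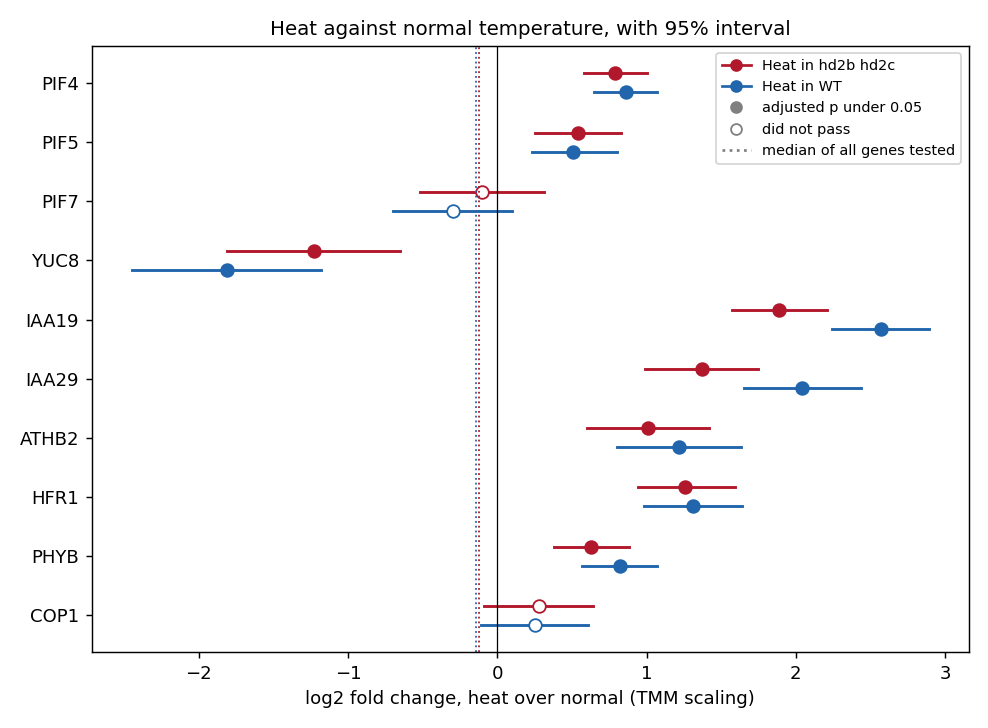
Log2 fold change with heat (x axis; heat over normal, TMM scaling) for the 10 genes, with its 95% interval, in the libraries labelled hd2b hd2c (upper of each pair) and in WT (lower). Filled points passed an adjusted p under 0.05, and dotted lines are the medians of all genes tested. IAA19 lies farthest to the right (1.89 and 2.57) and YUC8 alone lies to the left with a filled point (−1.23 and −1.81), and on library totals only IAA19 in both genotypes and IAA29 in WT stayed right of 0.

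After heat, HFR1 was the only member called between the genotypes, higher in the libraries labelled hd2b hd2c. Of all genes tested 2.76% were called in this comparison (1.59% higher, 1.18% lower). HFR1 averaged 24.9 ± 2.91 CPM in hd2b hd2c heat and 15.9 ± 2.23 in WT heat (SD, n = 3 each). On the log2 scale it was 0.64 higher (SE 0.158, adjusted p 0.0303). The call held in 8 of 12 fits that each left out 1 library. Of the fits without a library of the 2 groups compared, it held only without WT heat replicate 1 and without hd2b hd2c heat replicate 2. It was lost without WT heat replicate 2 (0.53, adjusted p 0.13) or 3 (0.66, adjusted p 0.0584) and without hd2b hd2c heat replicate 1 (0.74, adjusted p 0.0513) or 3 (0.52, adjusted p 0.156). It also did not pass when only these 2 groups were fitted (0.64, adjusted p 0.141) or with library totals (0.75, adjusted p 0.236).

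YUC8 and IAA19 came next after heat, in opposite directions, and neither passed. YUC8 averaged 2.98 ± 0.912 CPM in hd2b hd2c heat and 1.51 ± 0.587 in WT heat, and the highest WT library (2.18) lay above the lowest hd2b hd2c library (2.13). Its log2 fold change was 1.07 (95% interval 0.37 to 1.77, adjusted p 0.0911), and it passed without hd2b hd2c heat replicate 2 (1.17, adjusted p 0.0307) and by DESeq2 (1.06, adjusted p 0.0485). IAA19 averaged 28.6 ± 4.28 CPM in hd2b hd2c heat and 40.1 ± 3.1 in WT heat, with all hd2b hd2c libraries below all WT libraries, and its log2 fold change was −0.46 (−0.77 to −0.15, adjusted p 0.102). The groups did not overlap for 2 members, HFR1 and IAA19, and for 17.6% of all genes. For the other 7 members the log2 fold change lay between −0.20 (PIF7) and 0.12 (IAA29). Without hd2b hd2c heat replicate 2, IAA29 was at 0.34 (adjusted p 0.125), COP1 at 0.15 (adjusted p 0.597, against −0.03 with it) and IAA19 at −0.36 (adjusted p 0.139). The interval for PIF4 was −0.17 to 0.26, that for PHYB −0.37 to 0.13, that for COP1 −0.40 to 0.34, and that for IAA29 −0.26 to 0.49.

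At normal temperature HFR1 and IAA29 were higher in the libraries labelled hd2b hd2c, and no member was lower. Of all genes tested 2.65% were called (0.979% higher, 1.67% lower). HFR1 averaged 10.3 ± 0.115 CPM in hd2b hd2c normal and 6.4 ± 0.439 in WT normal, and was 0.68 higher on the log2 scale (SE 0.156, adjusted p 0.0154). IAA29 averaged 20.8 ± 0.563 CPM in hd2b hd2c normal and 12.2 ± 2.16 in WT normal, or 0.79 (SE 0.185, adjusted p 0.0199). Each call held in 7 of 12 fits that left out 1 library, with adjusted p up to 0.0948 for HFR1 and 0.155 for IAA29. Of the fits without a library of the 2 groups compared, HFR1 passed only without WT normal replicate 1 and IAA29 only without WT normal replicate 2. The IAA29 call was lost without WT normal replicate 1 or 3 or any of the hd2b hd2c normal replicates 1, 2 and 3, and the HFR1 call without WT normal replicate 2 or 3 or any of those same 3 libraries. With library totals neither passed (0.74, adjusted p 0.272 for HFR1, and 0.83, adjusted p 0.444 for IAA29).

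The other members did not pass at normal temperature. PIF7 averaged 8.47 ± 1.46 CPM in hd2b hd2c normal and 11.1 ± 1.18 in WT normal, with no overlap, and its log2 fold change was −0.39 (95% interval −0.77 to −0.01, adjusted p 0.347). YUC8 averaged 7.47 ± 1.76 CPM in hd2b hd2c normal and 5.35 ± 0.508 in WT normal, or 0.49 (−0.03 to 1.00, adjusted p 0.402). PIF4 averaged 51.8 ± 1.41 CPM in hd2b hd2c normal and 47.8 ± 1.42 in WT normal, or 0.12 (−0.09 to 0.32, adjusted p 0.707), although all of its hd2b hd2c libraries lay above the WT libraries. The genotypes did not overlap for 4 members, PIF4, PIF7, IAA29 and HFR1, and for 25.4% of all genes. PHYB (0.07, −0.17 to 0.32) and COP1 (−0.06, −0.41 to 0.29) lay closest to 0 together with PIF5 (−0.08, −0.36 to 0.19).

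**Figure D4:**
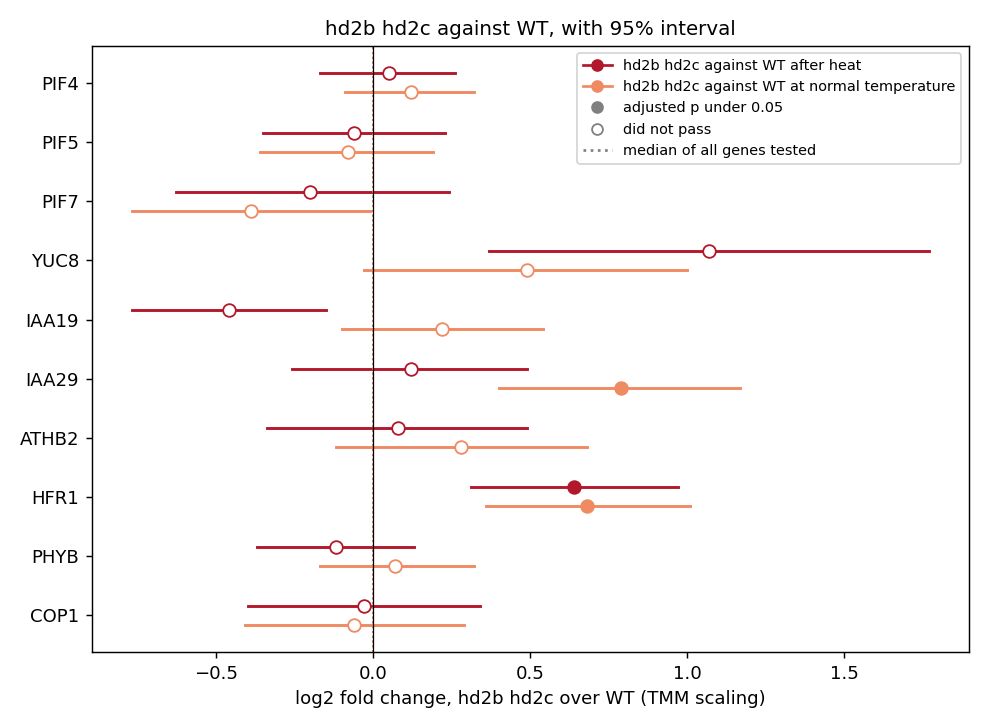
Log2 fold change between genotypes (x axis; libraries labelled hd2b hd2c over WT, TMM scaling) with its 95% interval, after heat (upper of each pair) and at normal temperature (lower). Filled points passed an adjusted p under 0.05, which only HFR1 (0.64 after heat, 0.68 at normal temperature) and IAA29 at normal temperature (0.79) did, and with library totals none passed.

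No member's heat effect was called different between the genotypes by edgeR, and the count was 0 by DESeq2 as well. Of all genes 0.336% were called in this interaction (0.148% higher, 0.188% lower), and none of these was a member. At an unadjusted p under 0.05 there were 1799 of the 20232 genes and 2 of the 10 members. These 2 were IAA19, with an interaction of −0.68 on the log2 scale (95% interval −1.13 to −0.23, adjusted p 0.247), and IAA29, with −0.67 (−1.21 to −0.13, adjusted p 0.395), both below 0. Without hd2b hd2c heat replicate 2 the values were −0.59 (adjusted p 0.145) for IAA19 and −0.46 (adjusted p 0.224) for IAA29. YUC8 had the largest positive value, 0.58 (−0.28 to 1.45, adjusted p 0.727). For HFR1 the interaction was −0.04 (−0.50 to 0.41), so its genotype differences at both temperatures were of near-equal size within a wide interval. For PIF4 it was −0.07 (−0.37 to 0.23).

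Per length, PIF4 and IAA29 were among the 3 most abundant members and YUC8 was the least abundant in every group. Levels between genes were compared as CPM per kilobase of exon. In hd2b hd2c heat IAA29 (40.6 ± 14.6) overlapped both PIF4 (34.7 ± 2.01) and IAA19 (28.4 ± 4.24), through replicate 2 alone, where it had 24.2 against 45.1 and 52.5 in the other libraries of that group. PIF4 and IAA19 did not overlap each other, and HFR1 (16.4 ± 1.91) lay below all 3. PIF5, ATHB2, PHYB and COP1 came next in hd2b hd2c heat, between 10.8 and 8.86, with each neighbour overlapping the next. In hd2b hd2c normal PIF4 (20 ± 0.544) lay above IAA29 (16.2 ± 0.439), and IAA19, COP1, PIF5 and HFR1 (7.8 to 6.78) overlapped in that order. In WT heat IAA19 (39.7 ± 3.07), IAA29 (38.8 ± 4.35) and PIF4 (33.5 ± 1.1) overlapped as neighbours, and PIF5, HFR1, PHYB, COP1 and ATHB2 did so between 11.1 and 9.03. In WT normal PIF4 (18.4 ± 0.548) stood clear of IAA29 (9.49 ± 1.68). YUC8 was last everywhere, at 1.72 ± 0.526 and 4.31 ± 1.01 in hd2b hd2c heat and normal, and at 0.873 ± 0.339 and 3.09 ± 0.293 in WT heat and normal, and only in hd2b hd2c normal and WT normal did it overlap its neighbour.

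The genes nearest to each member in pattern were sought by the root mean square difference of log2 CPM over the 12 libraries, each gene centred on its own mean, among 17729 other genes that averaged 1 CPM or more. PIF4 lay closest to EIF2 (AT2G39990), a translation initiation factor gene (0.0645), and to the splicing factor gene SR34 (0.0664). COP1 lay closest to DRP3B, which encodes a dynamin-related protein (0.0755), and PHYB to AT3G20790 (0.0826). IAA19 lay closest to AT4G16770 (0.181) and to EDS16, which encodes an isochorismate synthase of salicylic acid synthesis (0.189). IAA29 was matched by SPS1 (0.212) and BEE1, a brassinosteroid-responsive helix-loop-helix gene (0.223), and ATHB2 by the nitrilase gene NIT3 (0.13). The nearest gene was AT5G27290 for PIF5 (0.0942), AT3G05730 for PIF7 (0.165) and AT2G37690 for HFR1 (0.197). YUC8 had the most distant nearest gene of the 10, AT3G29776.1 (0.249). Both had few reads, with 7 counts of YUC8 in hd2b hd2c heat replicate 2. AT3G29776.1 averaged from 0.439 CPM in WT heat to 1.86 in hd2b hd2c normal. The part of low counts in this distance was not tested. No member was among the 2 nearest genes of another. Between members the closest pair was PIF4 and PHYB (0.134), followed by PIF5 and PHYB (0.193), and the farthest was YUC8 and IAA19 (1.97).

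Around the members, 9 lists of related genes held 121 genes, of which 114 were tested. With heat 53 rose and 26 fell in hd2b hd2c, which is 69.3% called, against 61.5% of all genes tested. In WT 52 rose and 29 fell, which is 71.1% called, against 65.8%. Of all genes 29.9% rose and 31.5% fell in hd2b hd2c, and 31% rose and 34.8% fell in WT. The counts of each list below stand beside these shares. On library totals 34 of the 53 and 27 of the 52 turned negative, and none of those that fell turned positive. Between genotypes 1 was higher and 3 lower in hd2b hd2c after heat (3.51% called, against 2.76% of all genes). At normal temperature 2 were higher and 1 lower (2.63% called, against 2.65% of all genes).

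**Figure D5:**
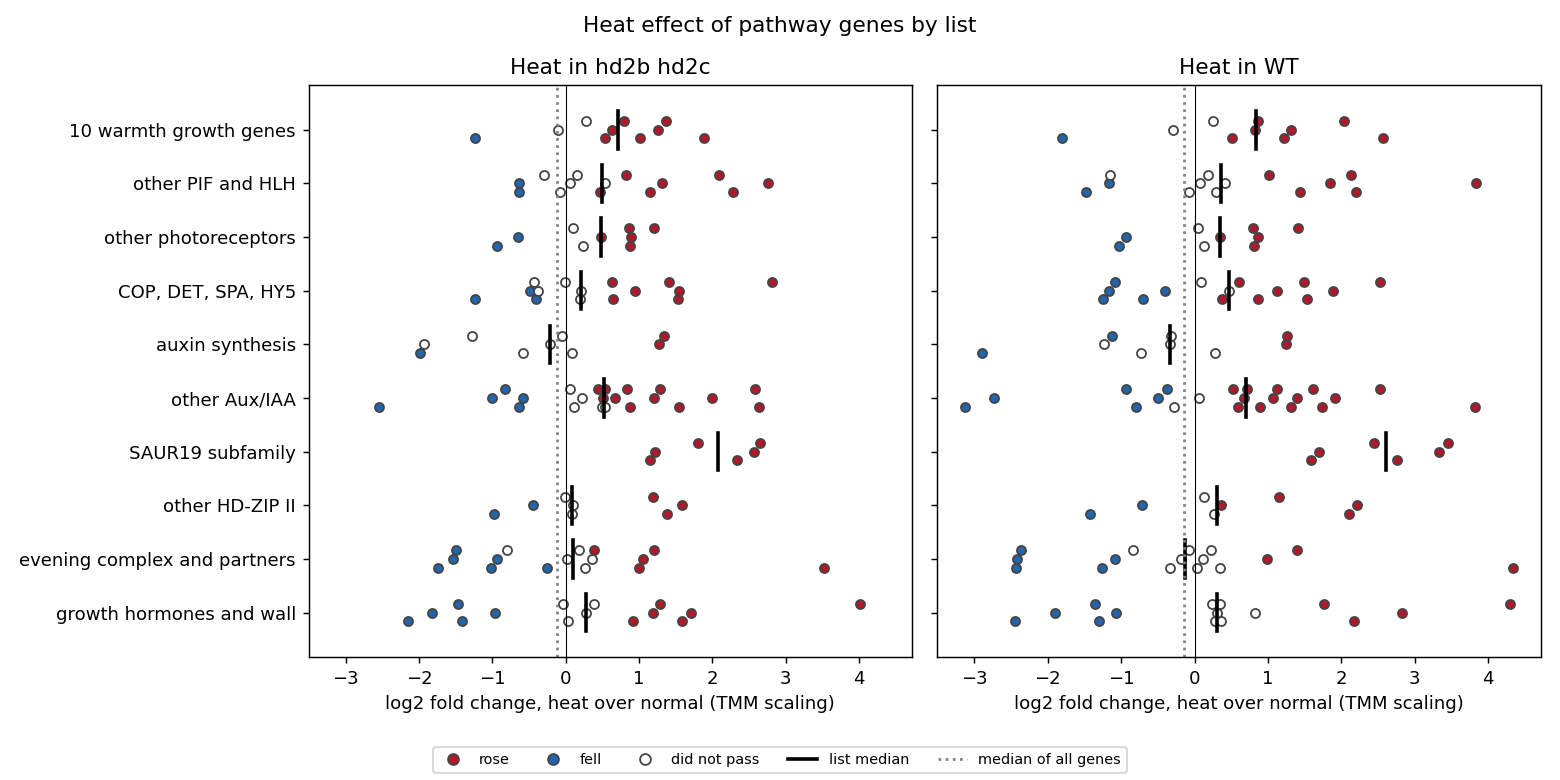
Log2 fold change with heat (x axis; heat over normal, TMM scaling) of each tested gene (points) in the 10-member list and 9 lists of related genes, in the libraries labelled hd2b hd2c (left) and in WT (right), with each list's median (bar) and the median of all genes (dotted line). Red points rose, blue points fell and open points did not pass. All 6 SAUR19 subfamily genes rose in both genotypes, and on library totals 2 of them turned negative in hd2b hd2c and none in WT.

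The SAUR19 subfamily, small auxin-induced genes that promote cell expansion, rose as a whole (6 of 6) in each genotype, although 2 of them turned negative on library totals in hd2b hd2c. SAUR21 rose by 2.65 in hd2b hd2c (SE 0.181) and by 2.76 in WT (SE 0.18), and SAUR24 by 2.56 and 3.45. SAUR19 rose by 2.34 and 3.33. The 6 genes are close copies, so reads may be split among them. The list's median was 2.07 in hd2b hd2c and 2.60 in WT, set against medians of all genes of −0.12 and −0.14.

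Of 22 other Aux/IAA genes, 12 rose and 5 fell in hd2b hd2c, and 14 rose and 6 fell in WT, but 8 of the 12 and 9 of the 14 turned negative on library totals. IAA17 rose by 2.58 in hd2b hd2c and 2.52 in WT, IAA7 by 1.55 and 1.74, and IAA5 by 2.63 and 3.82, and these 3 stayed positive on library totals. The level of IAA5 was low, 0.973 CPM in hd2b hd2c normal and 0.408 in WT normal. IAA4 fell by 2.54 in hd2b hd2c and by 2.73 in WT. Of 9 tested auxin synthesis genes 2 rose and 1 fell in hd2b hd2c (33.3% called), and 2 rose and 2 fell in WT (44.4%). These are smaller shares than those of all genes (61.5% and 65.8%). TAA1, which encodes the aminotransferase before the YUC step, rose by 1.34 in hd2b hd2c and 1.26 in WT, and YUC9 by 1.27 and 1.25, but all of these turned negative on library totals. YUC6 fell with YUC8, by 1.99 in hd2b hd2c (SE 0.381) and by 2.89 in WT (SE 0.372). Levels were low for YUC6 after heat, 0.673 CPM in hd2b hd2c and 0.835 in WT. They were low for YUC9 at normal temperature, 1.33 CPM in hd2b hd2c and 0.889 in WT.

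Among 14 other PIF and helix-loop-helix genes 7 rose and 2 fell in hd2b hd2c, and 6 rose and 2 fell in WT, with 4 of the 7 and 2 of the 6 negative on library totals. PIF8 rose by 2.28 in hd2b hd2c (SE 0.159) and by 2.13 in WT (SE 0.155). The growth-promoting PRE6 (2.09 and 2.20) and PRE5 (2.75 and 3.84) rose too, and these 3 stayed positive on library totals. The level of PRE5 was low, 1.43 CPM in hd2b hd2c normal and 0.554 in WT normal. Of 9 other photoreceptor genes 5 rose and 2 fell in each genotype, and all 5 turned negative on library totals. The ultraviolet-B receptor gene UVR8 rose by 1.20 in hd2b hd2c and 1.41 in WT (−0.33 and −0.12 on library totals), and so did the blue-light receptor genes CRY1 (0.86 and 0.87, or −0.61 and −0.66 on library totals) and PHOT2 (0.89 and 0.81, or −0.58 and −0.72). The 2 that fell, named after their values were seen, were the phytochrome genes PHYC (−0.93 and −0.93) and PHYE (−0.65 and −1.03).

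Of 15 genes of the COP, DET and SPA group and their targets, 7 rose and 3 fell in hd2b hd2c, and 8 rose and 5 fell in WT, with 4 of the 7 and 5 of the 8 negative on library totals. BBX24, a B-box gene of light signalling, rose by 2.81 in hd2b hd2c (SE 0.115) and by 2.52 in WT (SE 0.114), and CSN5A, a COP9 signalosome subunit gene, rose by 1.54 and 1.89, and both stayed positive on library totals. BBX22 rose by 1.41 and 1.49 and turned to −0.06 and −0.04 on library totals. Of 8 other HD-ZIP class II genes 3 rose and 2 fell in hd2b hd2c, and 4 rose and 2 fell in WT, with 2 negative on library totals in each. HAT2, an auxin-responsive relative of ATHB2, rose by 1.38 in hd2b hd2c (−0.08 on library totals) and by 2.22 in WT (0.70).

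In the list of the evening complex and PIF4 partners, 5 of 16 genes rose and 6 fell in hd2b hd2c, and 3 rose and 5 fell in WT, with 4 of the 5 and 2 of the 3 that rose negative on library totals. ELF3, a component of the evening complex that represses PIF4 transcription, fell by 1.54 in hd2b hd2c (SE 0.164) and by 2.36 in WT (SE 0.166). Also of that complex, ELF4 fell by 0.93 and 1.26 and LUX did not pass (0.18 and −0.08), both named after their values were seen. The clock gene TOC1 fell by 1.74 and 2.43. BBX18, a B-box gene that acts against ELF3, rose by 3.52 in hd2b hd2c and 4.34 in WT, also on library totals. In the list of growth hormone and cell wall genes 6 of 15 rose and 5 fell in hd2b hd2c, and 4 rose and 5 fell in WT, with 3 of the 6 and none of the 4 negative on library totals. The gibberellin synthesis gene GA3OX1 rose by 4.01 and 4.30, and the brassinosteroid synthesis genes CPD (1.71 and 1.77) and BR6OX2 (−2.15 and −2.45) moved apart.

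Between genotypes, few of the related genes passed, and each call was lost in some of the 12 fits that left out 1 library. After heat SAUR19 averaged 13.3 CPM in the libraries labelled hd2b hd2c and 23.4 in WT and was called lower (−0.79, SE 0.202, adjusted p 0.0356), as were IAA2 (−0.54, adjusted p 0.0277) and HAT2 (−0.45, adjusted p 0.0387). TOC1 was higher, with 23.2 CPM in hd2b hd2c heat against 16.4 in WT heat (0.53, adjusted p 0.0249). At normal temperature PRE5 (1.35, adjusted p 0.0292) and GA20OX1 (1.31, adjusted p 0.0352) were higher, and PRR7, a clock gene, was lower (−0.79, adjusted p 0.0405). The levels of PRE5 and GA20OX1 were low, 1.43 and 1.83 CPM in hd2b hd2c normal against 0.554 and 0.731 in WT normal. The calls held in 8 of 12 such fits for SAUR19, 9 for IAA2, 6 for HAT2, 8 for TOC1, 7 for PRE5, 5 for GA20OX1 and 4 for PRR7. These fits include those without a library of a group that was not compared, which bear less on the call. HAT2 was the only related gene whose heat effect was called different between genotypes (−0.84, SE 0.167, adjusted p 0.0238), a call that held in 5 of the 12 fits, and on library totals none of these calls passed.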

How the data were processed

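The authors deposited unnormalised whole-number counts per gene. The submitters' processing notes name HISAT2 2.1.0, featureCounts 2.0.3 and the TAIR10 build. Not given in the sources used here are the strand setting, the annotation release and how multiply aligned reads were counted. Column names match the samples' descriptions.

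From these counts, 20232 genes passed edgeR's filterByExpr (minimum count 10, minimum total 15). One fit of the 4 groups with edgeR 4.0.16 in R 4.3.3 (TMM factors, robust quasi-likelihood F test, two-sided) gave 5 comparisons, with Benjamini-Hochberg adjustment across every gene tested. The script was tested on simulated data in which few genes changed, equally up and down, and only for heat in WT. That test does not cover heat shifts as wide as those seen here or the other comparisons. The SE was taken as the size of the log2 fold change over the root of F. Levels per kilobase use the union of exons in RefSeq's TAIR10.1 annotation, to which all 10 members matched.

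The 10 members and the lists were chosen with earlier results of these data known. Named are all members, up to 3 called genes per list and comparison by smallest adjusted p, and the 2 nearest genes of a member. Genes said above to be named after their values were seen fall outside this rule. The 19 alternatives were other scalings, DESeq2 1.42.0, no filter, the compared groups alone, a replicate block, and leaving out each library.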

Additional observations from a re-analysis of the deposited data

How the results depend on the processing

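Of 940 values of a member under an alternative, 898 kept their call and, where called, their direction. This count includes values that were called in neither fit, whatever their sign, and fits without a library of a group not compared. It is thus no measure of how firm the calls are. Depth limits YUC8 most, with 7 counts in its shallowest library.

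With library totals only, the heat effect in hd2b hd2c turned negative for PIF4 (−0.70), PIF5 (−0.95), IAA29 (−0.05), ATHB2 (−0.44), HFR1 (−0.20), PHYB (−0.83) and COP1 (−1.17). In WT it did so for PIF4 (−0.67), PIF5 (−1.02), ATHB2 (−0.31), HFR1 (−0.22), PHYB (−0.72) and COP1 (−1.27). The median of all genes moved with them. Library totals split the heat calls of all genes into 5.77% higher in hd2b hd2c and 6.05% in WT, against 48.7% and 47.1% with TMM, and upper-quartile factors into 36.5% and 36.8%. They gave 0 called members and 53 called genes between genotypes after heat, 0 and 102 at normal temperature, and 10 genes in the interaction. Of the calls at normal temperature 72.5% were then higher, against 36.9% with TMM, and after heat 73.6% against 57.4%. Of the interaction calls 20% were higher on library totals, 60.9% with DESeq2 and 31.9% with the replicate block, against 44.1%.

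Genotype calls after heat, 1 member and 559 genes with TMM, came to 2 and 985 with DESeq2, 851 genes without a filter, and 0 and 79 with only the groups compared. At normal temperature (2 members, 536 genes) only the groups compared gave 1655 genes. The interaction (68 genes) gave 207 with DESeq2 and 180 without a filter. The cause of these moves was not tested.

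Leaving out each library gave 0 to 2 members and 152 to 1435 genes after heat, 0 to 2 members and 216 to 1061 genes at normal temperature, and 16 to 339 genes in the interaction. The highest of these counts of genes were all without hd2b hd2c heat replicate 2, and the lowest were without hd2b hd2c heat replicate 1 after heat and without WT normal replicate 2 in the other 2 comparisons. For heat the range was 8 to 9 members in hd2b hd2c and 8 to 8 in WT.

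Replicate numbers are shared across groups, but deviations of same-numbered libraries correlated between −0.13 and 0.15, so the numbers were not taken to pair the samples. With a replicate block 0 members and 340 genes were called between genotypes after heat, and HFR1 did not pass (0.64, adjusted p 0.0596). Of the related genes, SAUR19 (adjusted p 0.0525) and HAT2 (0.0732) after heat, GA20OX1 (0.0566) at normal temperature and HAT2 in the interaction (0.053) did not pass with the block either. The block left 8 members called with heat in each genotype, 2 at normal temperature and 0 in the interaction. With a prior count of 0.5 in place of 2, all 20 nearest genes were the same. A fit of only the groups compared does not exist for the interaction, which uses all 4.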
